A study of Mus musculus with 172 samples.

Results

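The response of the liver to sleep loss was compared between 33 BXD/*RwwJ* lines. BXD lines are recombinant inbred mice that descend from a cross of C57BL/6J (B6) and DBA/2J (D2), so that each line carries a fixed mosaic of the parental genomes and mice of 1 line are nearly identical. The members are the 66 liver samples of these lines, of 172 samples in the series, with 1 pool of undisturbed control mice (Ctr) and 1 pool of sleep-deprived mice (SD) for each line. SD mice were kept awake by gentle handling for 6 h from light onset, and mice of both groups were killed at the same clock time, 6 h after light onset (ZT6). All mice were young adult males, and RNA of several mice of a line and condition was mixed before the library was made. Fewer mice stood behind BXD79, BXD85 and BXD101. For BXD85 and BXD101 the authors used plasma of 1 mouse per condition, so their liver samples may also come from 1 mouse each. BXD96, BXD97 and BXD103 are known from their older names as sub-lines of other BXD lines. Since a line has 1 pool per condition, a difference between lines and a difference between pools cannot be told apart within a line. The only repeated strains were the parents, with 2 Ctr and 2 SD pools each, taken at the start and at the end of a breeding period of about 2 years, and these 8 samples gave the error between pools of the same strain. P-values for differences between lines therefore rest on the spread between parental pools. Those for mean changes, for spread and for relations across lines rest on the 33 lines.

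The change of a gene in a line is its level after SD minus its level in Ctr, in log2 CPM (the logarithm of read counts scaled to the library total), so that a change of 1 is a doubling. Genes with a mean level of at least 1 log2 CPM over the pools were tested, 12119 of 14107 genes listed, which corresponds to about 13.4 reads in a median library. Libraries held 5460118 to 8269401 counted reads in Ctr (median 6769577) and 4681101 to 8009362 after SD (median 6595443). The samples carried liver markers throughout. The 8 hepatocyte markers summed to 3947 to 5856 CPM in Ctr and 4203 to 5673 CPM after SD. Of 5 adipocyte markers only *Cfd* was listed. Of 17 exocrine pancreas markers 2 were listed, at 41.5 to 79.1 CPM in Ctr and 41.0 to 86.5 CPM after SD. In bulk liver, fewer cells of a type and less RNA per cell cannot be told apart.

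Sleep deprivation reaches the liver through several known routes, which the lists used here follow. Wakefulness raises glucocorticoids, which act on the glucocorticoid receptor and induce genes such as *Fkbp5*, *Zbtb16* and the metallothioneins. Changed feeding and activity act on the enzymes of lipid, cholesterol and bile acid metabolism, pulses of growth hormone act through STAT5 on *Cish* and *Socs2*, and protein folding in the endoplasmic reticulum and the circadian clock follow feeding and the sleep-wake cycle.

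One line stood apart before any gene was considered. The deviation of a line was taken as the root mean square, over the tested genes, of its change minus the median change of the lines. It was 0.691 in BXD70, against 0.256 in BXD98 (the lowest) to 0.383 in BXD85 and 0.369 in BXD95 (the next highest), and BXD70 was the single line above the upper fence of 0.406, which lies 1.5 interquartile ranges above the upper quartile. The SD pool of BXD70 carried this deviation. Against the median of the SD pools it deviated by 0.740 (fence 0.443, next BXD50 with 0.468, also above it), whereas its Ctr pool deviated by 0.365, close to the median of 0.365 over the Ctr pools. Among the Ctr pools only that of BXD50 lay above the fence (0.441 against 0.431). The SD pool of BXD70 was also the smallest library, with 4681101 reads. In this pool the deviation followed transcript length, with a Spearman correlation of -0.709 across genes (genes are not independent replicates), compared with -0.486 to 0.449 in the SD pools of the other lines and -0.118 in the Ctr pool of BXD70. Genes of the shortest sixth (up to 1651 bases) averaged 0.47 above the median of the SD pools and genes of the longest sixth (from 5268 bases) 0.93 below it. Among 79 tested cytosolic ribosomal protein genes, which are short, BXD70 was the highest or lowest line in 77, against 51.2% of all tested genes, and the sum of these genes was 9648 CPM in its SD pool against 5472 CPM in the lowest pool (BXD75) and 6574 CPM in the median pool. The part of transcript length, of library size and of the line itself in the deviation of BXD70 was not tested further. Counts from the F test are given with and without this line, and where a gene passed the F test and lost its call without BXD70, this is said.

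**Figure D1:**
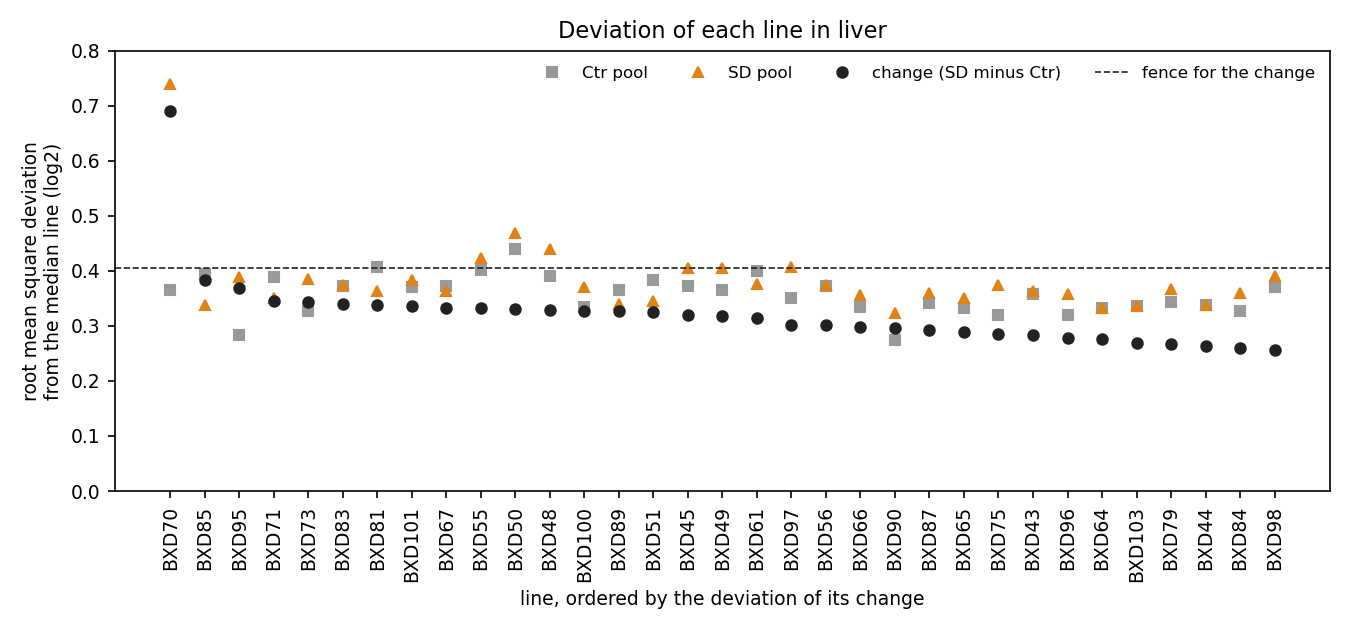
Root mean square deviation from the median line over the tested genes (log2, vertical axis) for the Ctr pool (squares), the SD pool (triangles) and the change (circles) of each of the 33 lines, ordered by the deviation of the change. The change of BXD70 lies at 0.691 and that of the other lines between 0.256 and 0.383, below the dashed fence at 0.406.

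**Figure D2:**
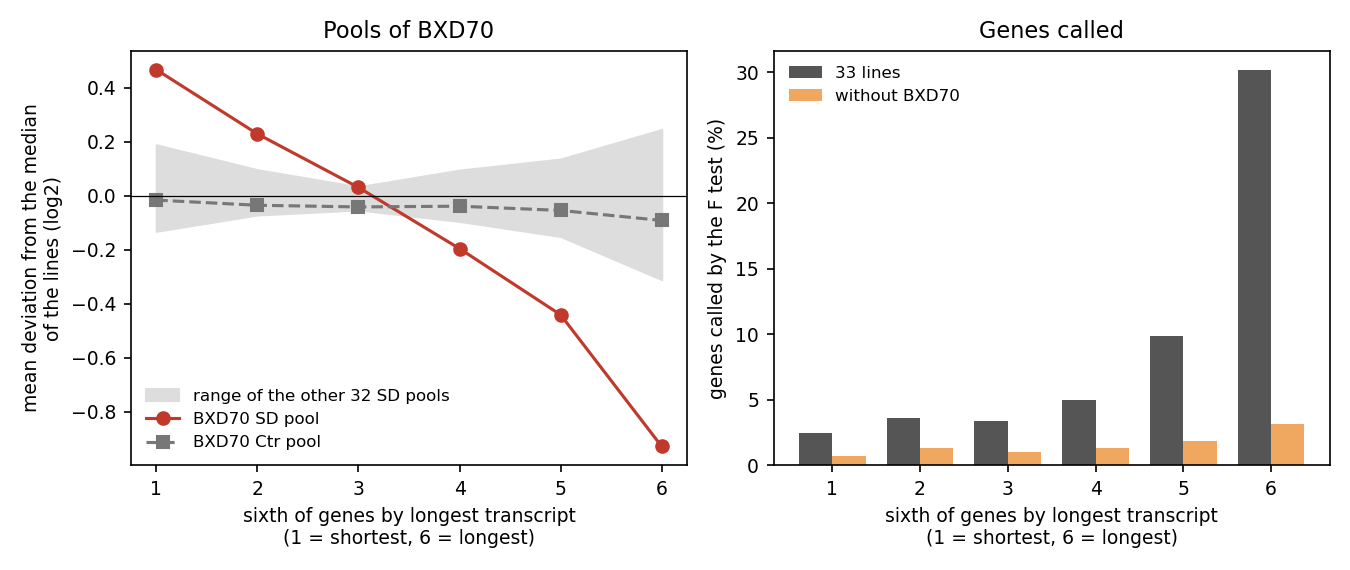
Left, mean deviation (log2) of the BXD70 pools from the median of the lines in 6 equal groups of genes ordered by transcript length, with the range of the other 32 SD pools shaded. Right, percent of genes of each group whose change differed between lines in the F test, over 33 lines (dark bars) and without BXD70 (light bars): it rose from 2.46% to 30.1% with BXD70 and from 0.681% to 3.14% without it.

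Single genes show how far BXD70 went. *Ppp1r12b*, a regulatory subunit of myosin phosphatase, had 48 reads in the Ctr pool and 0 reads in the SD pool of BXD70, while the other lines lay between 1.30 and 3.35 log2 CPM after SD. *Plcb4*, a phospholipase C, had 29 reads and 0 reads, *Ccdc15* 19 and 0, *Fbxo47* 22 and 0, and *Bicc1*, an RNA-binding protein, 58 and 1. No other line reached 0 reads in these 5 genes after SD. A pool with 0 reads is listed near -2.75 log2 CPM, a value set by the prior count, so that a change to or from such a pool is no measured fold. *Wdfy2*, an endosomal protein, went from 5.01 to 0.89 log2 CPM in BXD70, with changes of -0.67 to 0.37 in the other lines. On the upper side, *Acot3*, a peroxisomal acyl-CoA thioesterase, went from 1.99 to 5.77 log2 CPM (23 and 256 reads), *Cyp4a14*, a fatty acid omega-hydroxylase, from 3.53 to 7.40 (69 and 796 reads), and *Capn11*, a calpain protease, from -0.04 to 4.12 (5 and 81 reads). *1810032O08Rik* and *Gm14023* followed with 2.79 and 3.12. After the trend with transcript length was removed, all 5 genes farthest below and all 5 farthest above the other lines kept BXD70 as their lowest or highest line. These genes were chosen for their distance in BXD70, so this outcome was close to given and tells little about the part of transcript length. *Cyp4a10*, chosen after its values were seen, was at 121 and 789 reads in BXD70. There BXD70 was no longer the extreme after the trend was removed. Over all tested genes, the change of BXD70 was at least 1 below the median line in 1105 genes and at least 1 above it in 216. The next line in each direction was BXD95 with 214 and BXD85 with 199.

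Whether lines differed more than repeated pools of a strain was tested gene by gene with a moderated F test (limma) on the changes, in which the parental pairs gave the error. The change differed between lines in 1083 of 12119 genes (8.94%), and in 185 (1.53%) without BXD70. All 185 were among the 1083, so that a gene that did not pass over the 33 lines did not pass without BXD70 either. P-values without BXD70 were adjusted anew over all genes, so a gene can also lose its call through the adjustment. This was not separated from the part of BXD70 in the gene itself. The count was 0 when the error was moderated without a variance trend (1744 genes at an unadjusted p under 0.05). It was 465 without the D2 pools, 1617 without the B6 pools and 416 with the trend of transcript length removed. Without pairing of the 2 pools of each line the count was 631, and 161 with weights from recovered reads (voom). The standard deviation of the change over the 33 lines had a median of 0.21 over all genes, of 0.31 over the 1083 and of 0.47 over the 185, whereas the median standard deviation between repeated pools was 0.12 over all genes and 0.13 over the 185. Here and for single genes below, the latter is that of the change within a parental strain, with 2 degrees of freedom. The F test used a moderated value instead. The part expected from counting reads alone was 0.11 over all genes and 0.0955 over the 185. BXD70 was the highest or lowest line in 774 of the 1083 genes (71.5%) and in 6205 of all genes (51.2%). In the mean over all 33 lines, 574 of the 1083 genes (53.0%) also changed, against 54.7% of all genes. Of the 185 genes, 130 (70.3%) did so (73 rose and 57 fell).

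Among the genes that passed, *Pnpla3* had the largest standard deviation of the change. *Pnpla3* (chr15:83998246-84019942, mm9) encodes a lipid droplet acyltransferase and lipase and is switched on by feeding and insulin. It stood at -0.85 to 5.47 log2 CPM in Ctr (median 3.62) and at -1.62 to 4.89 after SD (median 1.88). The groups overlapped over nearly their whole range, although 26 lines went down and 7 went up. The changes ran from -4.40 in BXD48 (from 2.79 to -1.62) and -4.26 in BXD81 to 1.49 in BXD45 and 3.37 in BXD64 (from 0.14 to 3.52), with a standard deviation of 1.87 over lines against 0.49 between repeated pools (limma F test, adjusted p = 0.00486, and 0.0119 without BXD70). The mean change of *Pnpla3*, a fall, was -1.50 ± 0.30 (SE, n = 33 lines, limma adjusted p = 5.90e-05), and -1.44 without BXD70. The B6 pools changed by -0.09 and -0.96 and the D2 pools by -2.76 and -3.23.

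Other lipid synthesis genes varied less. Of 20 tested genes of fatty acid synthesis, 7 differed between lines and 4 did so without BXD70, against 8.94% and 1.53% of all genes. In the mean 2 rose and 9 fell, against 27.5% and 27.3% of all genes. The stearoyl-CoA desaturase *Scd2* changed from -2.31 in BXD96 to 0.99 in BXD67 and fell in 29 lines (adjusted p = 0.0129 for the difference between lines, 0.035 without BXD70). *Acacb*, the acetyl-CoA carboxylase that limits fatty acid oxidation, ranged from -0.60 in BXD73 to 0.95 in BXD89, with 22 lines up and 11 down (adjusted p = 0.00993 and 0.0327), and its cytosolic relative *Acaca* from -1.29 in BXD70 to 0.77 in BXD85, with 12 lines up and 21 down (adjusted p = 0.121). The mean change of the list was lowest in BXD70 (-0.56) and BXD48 (-0.55) and highest in BXD64 (0.30), where *Pnpla3* was also highest.

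The mean change of the genes of cholesterol synthesis lay below 0 in 31 lines. Of 23 tested genes, 9 differed between lines and 5 without BXD70 (8.94% and 1.53% of all genes), and 18 fell in the mean and 1 rose (27.3% and 27.5% of all genes). *Mvd* (mevalonate decarboxylase) stood at 5.84 to 7.16 log2 CPM in Ctr (median 6.76) and 5.59 to 7.24 after SD (median 6.18). It fell in 28 of 33 lines, from -1.32 in BXD66 and -1.30 in BXD95 to 0.35 in BXD89 and 0.48 in BXD64, a standard deviation of 0.49 against 0.22 between repeated pools (limma adjusted p = 0.00858, and 0.0246 without BXD70). *Lss* (lanosterol synthase) ranged from -1.14 in BXD70 to 0.28 in BXD64 and lay below 0 in 31 lines (adjusted p = 0.012 and 0.0439), while *Mvk* (mevalonate kinase) fell in 31 lines and did not pass (adjusted p = 0.0869). The list mean ran from -0.45 in BXD95 and -0.44 in BXD61 to 0.13 in BXD45.

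Fatty acid oxidation and PPARa targets rose in 17 and fell in 1 of 28 genes in the mean (27.5% and 27.3% of all genes). Of these 28, 11 differed between lines and 5 without BXD70 (8.94% and 1.53% of all genes). *Cyp4a14* changed from -0.89 in BXD84 to 3.64 in BXD65 and 3.87 in BXD70 around a median of 0.80 (limma adjusted p = 0.00213, and 0.00558 without BXD70). *Acot3* changed from -1.41 in BXD95 to 3.09 in BXD81 and 3.78 in BXD70, with 18 lines up and 15 down, and its repeated pools differed by a standard deviation of 0.07 (adjusted p = 0.00303 and 0.0164). *Plin4*, a lipid droplet coat protein, rose in 29 lines and reached 2.50 in BXD87 (adjusted p = 0.0485, and 0.119 without BXD70). Leaving out any 1 of 9 lines, BXD70 among them, ended the call of *Plin4*. *Fgf21*, a hormone of the fasting liver, went up in 18 and down in 15 lines between -2.41 in BXD95 and 2.16 in BXD97 (adjusted p = 0.0338 and 0.0848). The list mean was highest in BXD70 (0.83) and BXD81 (0.81), with a median of 0.25. *Acot3* and the *Cyp4a* genes have close relatives in tandem, between which reads may be shared.

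Metallothionein 2 (*Mt2*, chr8:96696518-96697467, mm9) binds zinc and copper and is induced by metals, through metal response elements, and by glucocorticoids. Its promoter is shown because the changes of *Mt2* and *Mt1* were among those that held without BXD70. The sequence is RefSeq's, GRCm38.p6, plus strand, chr8:94172368-94172667, from 250 bases before to 50 bases after the start site. Capitals mark the letters TGCACNC or TGCGCNC on either strand, the core of a metal response element, which were found 4 times and in 25.7% of 32851 promoters of the same length.
Mt2: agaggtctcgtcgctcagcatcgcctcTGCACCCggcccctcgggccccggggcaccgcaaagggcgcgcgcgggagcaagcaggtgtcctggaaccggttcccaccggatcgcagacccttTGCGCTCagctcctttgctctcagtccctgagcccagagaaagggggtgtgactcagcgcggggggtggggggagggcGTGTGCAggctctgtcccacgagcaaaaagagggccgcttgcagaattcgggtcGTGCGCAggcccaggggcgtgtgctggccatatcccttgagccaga

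*Mt2* stood at 1.93 to 5.84 log2 CPM in Ctr (median 3.77) and at 2.89 to 6.18 after SD (median 5.18). It rose in 29 of 33 lines, and BXD56, BXD89, BXD51 and BXD45 were the 4 lines below 0. The changes went from -1.59 in BXD56 (4.65 to 3.06) and -1.22 in BXD89 to 3.03 in BXD61 and 3.08 in BXD79 (2.38 to 5.46), with a standard deviation of 1.28 against 0.28 between repeated pools (limma adjusted p = 0.0022, and 0.00415 without BXD70). The parental pools lay near the middle of this range, with 1.48 and 2.03 in B6 and 1.34 and 1.49 in D2. The neighbouring *Mt1* was lowest in BXD51, followed by BXD56 with a change of -0.98, and highest with 2.23 in BXD49 (adjusted p = 0.00512 and 0.0124).

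The mean change of the glucocorticoid targets lay above 0 in all 33 lines, from 0.04 in BXD89 and 0.06 in BXD96 to 1.11 in BXD87 and 1.25 in BXD95. In the mean over lines 14 of 17 tested genes rose and none fell, where 27.5% and 27.3% of all genes did. Between lines 8 differed, and 6 without BXD70 (8.94% and 1.53% of all genes). *Zbtb16*, a transcription factor that the glucocorticoid receptor induces, rose in every line, by 0.37 in BXD70 and 0.51 in BXD50 to 3.45 in BXD90 and 3.51 in BXD79 (adjusted p = 0.0336, and 0.0971 without BXD70). *Cdkn1a*, a cyclin-dependent kinase inhibitor, changed from -2.33 in BXD85 to 2.67 in BXD103 and 3.33 in BXD95, with a standard deviation of 1.03 against 0.12 between repeated pools (adjusted p = 0.015 and 0.0418). *Igfbp1*, which binds insulin-like growth factors, ranged from -1.64 in BXD101 to 1.96 in BXD97 (adjusted p = 0.0261 and 0.0667). Its parental pools lay at 0.03 and -0.04 in B6 and 1.45 and 2.72 in D2.

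*Cish* (chr9:107198357-107205115, mm9), an inhibitor of cytokine receptors that growth hormone induces through STAT5, went in opposite directions in different lines. Its promoter, from RefSeq, GRCm38.p6, plus strand, chr9:107296409-107296708, is shown with the letters TTCNNNGAA of a STAT5 site in capitals on either strand. They were found 2 times, at positions 1 and 12 from the start site, and in 8.30% of 32851 promoters.
Cish: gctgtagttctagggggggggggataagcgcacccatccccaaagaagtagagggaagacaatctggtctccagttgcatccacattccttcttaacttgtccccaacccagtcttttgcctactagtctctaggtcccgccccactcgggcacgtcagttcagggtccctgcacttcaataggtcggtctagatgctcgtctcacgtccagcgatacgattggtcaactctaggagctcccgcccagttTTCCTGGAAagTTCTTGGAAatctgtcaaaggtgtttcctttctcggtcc

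*Cish* stood at 3.18 to 6.49 log2 CPM in Ctr (median 5.57) and 3.11 to 6.76 after SD (median 5.74), so the groups overlapped almost fully. It went up in 18 lines and down in 15. The lowest changes were -2.24 in BXD79 (6.17 to 3.93) and -1.90 in BXD66, and the highest 2.70 in BXD67 and 3.37 in BXD49 (3.18 to 6.55). The standard deviation over lines was 1.34 against 0.13 between repeated pools, and *Cish* had the lowest adjusted p of the named genes (limma F test, 1.1e-04, and 1.17e-04 without BXD70). The mean over lines was 0.10 ± 0.21 (SE, n = 33, limma adjusted p = 0.725). *Socs2*, another growth hormone and STAT5 target, rose in 31 lines, from -0.67 in BXD100 to 2.36 in BXD45 and 2.87 in BXD70 (adjusted p = 0.00963, and 0.0363 without BXD70). Of 35 tested genes of growth hormone action and sex bias, 6 (17.1%) differed between lines and 4 (11.4%) did so without BXD70, against 8.94% and 1.53% of all genes.

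*Moxd1* (chr10:23943323-24022596, mm9), a monooxygenase-like protein with male-biased expression in liver, was listed at 0 reads in the lowest Ctr and SD pools and at up to 8.28 log2 CPM in Ctr (median 6.64) and 8.46 after SD (median 5.34). BXD101, a line with few mice behind it, went from 6 to 192 reads and was 3.38 above the next line. BXD81 went from 7.56 to 3.60 and BXD65 changed by -2.87. The change of *Moxd1* differed between lines (limma adjusted p = 0.00265, and 0.00728 without BXD70). *Mup4*, a major urinary protein of a family of near-identical copies, did not pass (adjusted p = 0.317).

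Xenobiotic metabolism held some of the widest changes. *Cyp2b10* (chr7:26682639-26711643, mm9), the classical target of the constitutive androstane receptor, lay between 0 reads and 4.32 log2 CPM in Ctr (median 2.12) and between -0.91 and 6.07 after SD (median 3.37). It went up in 24 lines and down in 9. BXD95 went from -1.14 to 4.56 and BXD61 up by 4.93, whereas BXD67 went from 3.16 to 1.03, and the standard deviation was 1.78 against 0.39 between repeated pools (limma adjusted p = 0.0042, and 0.00949 without BXD70). *Ces2b*, a carboxylesterase, changed from -1.83 in BXD83 to 4.10 in BXD51, but its repeated pools differed by 0.83 (adjusted p = 0.0153 and 0.0431). *Cyp2a4*, a steroid hydroxylase with a near-identical neighbour, went from -2.79 in BXD71 to 4.84 in BXD73 (1.20 to 6.04), and *Cyp2c69* from -2.59 in BXD85 to 3.09 in BXD98. Both passed with BXD70 (adjusted p = 0.048 and 0.0304) and not without it (0.105 and 0.0772). *Gsta1* was at -0.98 to 1.13 (adjusted p = 0.579). Of 27 tested genes, 5 (18.5%) differed between lines and 3 (11.1%) without BXD70, against 8.94% and 1.53% of all genes. In BXD81 and BXD70 the list mean was highest, 0.68 and 0.48, and in BXD71 lowest, -0.23. Among bile acid genes, *Slco1a4*, an uptake transporter, fell in 30 lines by up to 1.53 in BXD71 (adjusted p = 0.00489 and 0.0122), whereas *Cyp7a1*, the rate-limiting enzyme of bile acid synthesis, went from -0.94 in BXD101 to 0.68 in BXD85 (adjusted p = 0.047 and 0.103). *Abcc2*, an export pump, was at -1.27 in BXD70 and between -0.44 and 0.01 elsewhere (adjusted p = 0.0131 and 0.367), and *Nr0b2*, a repressor of that enzyme, at 1.02 in BXD70 (adjusted p = 0.023 and 0.106). Of 16 tested bile acid genes 6 passed (37.5%, against 8.94% of all genes), and without BXD70 only 1 did (6.25%, against 1.53%).

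**Figure D3:**
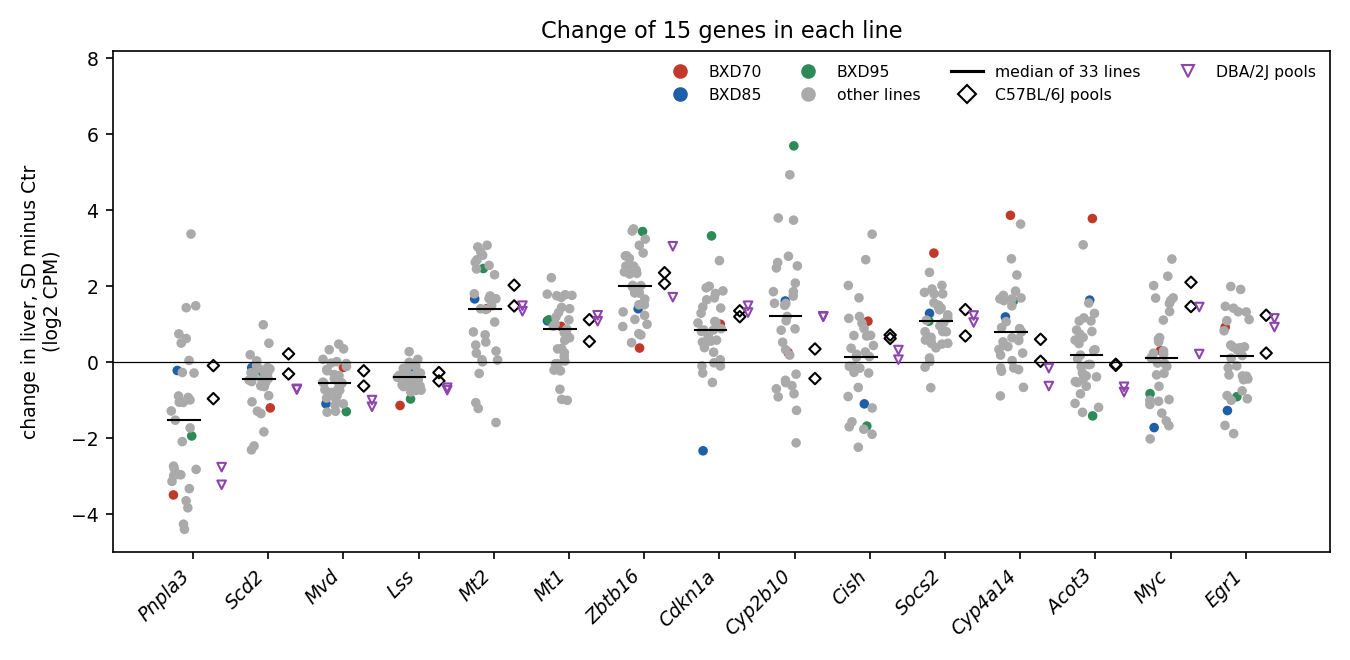
Change in liver (SD minus Ctr, log2 CPM, vertical axis) of 15 genes, with a point for each of the 33 lines, a bar at their median, and the repeated B6 pools (diamonds) and D2 pools (triangles) to the right. *Cish*, *Myc* and *Egr1* spread to both sides of 0, *Zbtb16* lay above 0 in all 33 lines, and *Lss* lay below 0 in 31.

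Growth and stress regulators also went both ways. *Myc*, a growth-promoting transcription factor, stood at 2.60 to 5.50 log2 CPM in Ctr (median 4.15) and 2.61 to 5.86 after SD (median 4.14). It went up in 17 lines and down in 16, from -2.02 in BXD97 (5.32 to 3.30) to 2.71 in BXD49 (3.07 to 5.79), the line that was also highest for *Cish* (limma adjusted p = 0.0127, and 0.0344 without BXD70). Its repeated pools had a standard deviation of 0.70. *Egr1*, an immediate early factor, ranged from -1.88 in BXD43 to 1.99 in BXD48 (adjusted p = 0.00922 and 0.025), while *Fos* was higher after SD in 29 lines and *Nr4a1* in 17, neither passing (adjusted p = 0.262 and 0.33). *Gadd45g*, a growth arrest gene, was between -2.54 in BXD85 (5.62 to 3.07) and 2.82 in BXD73 (2.72 to 5.54), with 22 lines up (adjusted p = 0.00486 and 0.0112). Of 19 tested immediate early genes, 4 (21.1%) differed between lines and 3 (15.8%) without BXD70, against 8.94% and 1.53% of all genes. None of the 4 named cell cycle genes (*Ccnb2*, *Cdc20*, *Ccna2* and *Top2a*) passed, with adjusted p from 0.104 to 0.225, and of 15 tested cell cycle genes 1 did, *E2f8*, with BXD70 only (6.67%, against 8.94% of all genes).

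Several of the genes that varied most were nearly silent in some lines. *Slc15a2*, a peptide transporter, had 174 reads in Ctr and 2 reads after SD in BXD100, and the next line, BXD101, was 3.11 higher in its change (limma adjusted p = 0.00747, and 0.0185 without BXD70). *Ctse* (cathepsin E) went from 5.26 to 0.07 log2 CPM in BXD95 and from 0.38 to 3.10 in BXD89, with 0.13 between repeated pools (adjusted p = 0.00666 and 0.0198). Most lines were either high for *Ctse* in both conditions, as BXD44 (7.09 in Ctr and 7.04 after SD), or low in both, as BXD64 (-1.71 and -1.69). Few pools lay between, among them Ctr of BXD95, BXD55 (3.44) and BXD100 (2.51) and SD of BXD89. Whether these pools mixed mice with high and low *Ctse* was not tested. *Clec2h*, a lectin-like receptor, went from 5.06 to 0.72 in BXD95 (adjusted p = 0.0175, 0.0449 without BXD70 and 0.0544 without BXD95). *Chrna4*, a nicotinic receptor subunit, fell in 27 lines, by up to 3.41 in BXD48, and changed by 2.00 in BXD85 (adjusted p = 0.00747 and 0.0219). *A4gnt*, a glycosyltransferase, ranged from -3.65 in BXD51 (0 reads after SD) to 2.32 in BXD85 (adjusted p = 0.0129 and 0.0347) and *Tcf24*, a transcription factor, from -4.57 in BXD95 (0 reads after SD) to 3.55 in BXD73 (adjusted p = 0.0101 and 0.0278). *Cfd* (adipsin), *Tmc5* and *Zbtb7c* passed with BXD70 (adjusted p = 0.0471, 0.0236 and 0.0435) and not without it (0.107, 0.0843 and 0.153). *Cfd* was listed at 0 reads in some pools of both groups and marks adipocytes, whose other 4 markers were not listed. Its sum ran from 0.147 to 27.5 CPM in Ctr and from 0.149 to 26.6 CPM after SD, and a part of adipose tissue in it was not tested.

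A change of at least 0.5 in 8 or more lines together with one of at most -0.5 in 8 or more lines was found in 92 genes. Of these, 15 differed between lines and 8 without BXD70, where 8.94% and 1.53% of all genes did, but the same changes chose these genes. By standard deviation the leading genes were *Fmr1nb*, *Cyp2a4*, *Cfd*, *Cish* and *Tmc5*. *Fmr1nb* ranged from -6.72 in BXD103 to 2.71 in BXD70, but was at 0 reads in some pools of both groups, its parental pools spread from -0.48 to 5.73, and it did not pass (adjusted p = 0.317). In 66 genes the most extreme line lay more than 2 beyond the next, and in 36 of them it was BXD70. When BXD70 was left out, 19 such genes remained.

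BXD100 supplied 4 of these 19 genes, and BXD73, BXD85 and BXD101 3 each. The 3 genes of BXD85, *Gm129*, *Per3* and *Bhlhe41*, all belong to the circadian clock. There CLOCK and ARNTL drive the *Per*, *Cry*, *Nr1d* and *Dbp* families through E-boxes, and some of the products repress them in turn. The difference lay in the Ctr sample of BXD85, which may come from a single mouse. In the Ctr pool of BXD85, 14 of 19 listed clock genes were outside the range of the other 32 lines, and after SD 0 of 19 were. Below the range were *Bhlhe40*, *Bhlhe41*, *Cry2*, *Dbp*, *Gm129*, *Hlf*, *Nr1d2*, *Per2*, *Per3* and *Tef*, and above it *Arntl*, *Cry1*, *Nfil3* and *Npas2*. The line with the next highest number in Ctr was BXD50, with 5, and the median line had 1. The genes beyond *Gm129*, *Bhlhe41*, *Per3* and *Arntl* were named after their values were seen.

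*Gm129* (RefSeq symbol *Ciart*, chr3:95682426-95686174, mm9), a repressor of CLOCK and ARNTL, is printed with its promoter because it had the largest change of the clock genes in BXD85. The sequence is RefSeq's, GRCm38.p6, minus strand, chr3:95882179-95882478. Capitals mark the E-box CACGTG, found 3 times, at positions -116, -58 and -44 from the start site, and in 7.15% of 32851 promoters.
Gm129: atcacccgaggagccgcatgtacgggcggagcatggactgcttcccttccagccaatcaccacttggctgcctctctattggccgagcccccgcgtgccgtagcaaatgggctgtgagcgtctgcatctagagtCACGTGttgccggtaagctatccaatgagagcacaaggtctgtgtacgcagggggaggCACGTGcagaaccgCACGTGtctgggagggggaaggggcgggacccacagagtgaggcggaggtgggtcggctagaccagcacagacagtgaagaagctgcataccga

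In the Ctr pool of BXD85 *Gm129* was at 0.16 log2 CPM (7 reads), below 2.49 to 5.64 in the other lines, and after SD at 4.89, within their 3.73 to 6.02. Its change was 4.72, and the other lines ran from -0.99 to 1.54. *Per3*, a clock repressor, was at 2.74 in Ctr (others 5.10 to 7.21) and 6.21 after SD (others 4.83 to 6.76), and fell in 28 of 33 lines while it rose by 3.47 in BXD85. *Bhlhe41*, another repressor, was at 1.80 (others 3.66 to 5.60) and 5.00. *Arntl* was at 6.81 in Ctr (others 3.05 to 5.38) and 3.89 after SD (others 2.78 to 5.54). In cortex, 5 of 19 genes of BXD85 were outside the range of the others in Ctr and 1 after SD, and BXD56 had 7 in Ctr.

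**Figure D4:**
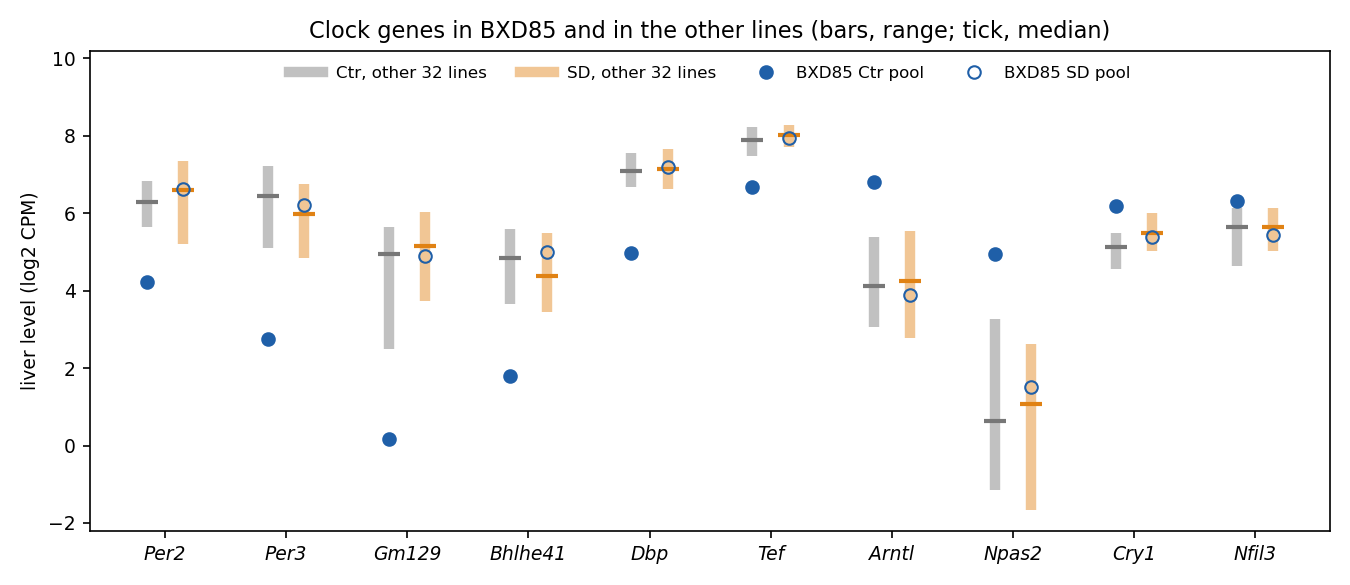
Liver level (log2 CPM, vertical axis) of 10 clock genes, with bars for the range and ticks for the median of the other 32 lines in Ctr (grey) and after SD (orange), and circles for BXD85 (filled, Ctr, open, SD). All 10 filled circles lie outside the grey bars and all 10 open circles lie within the orange bars.

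Of 18 tested clock genes 11 differed between lines and 8 did so without BXD70, against 8.94% and 1.53% of all genes. *Per3* (limma adjusted p = 0.0022) and *Bhlhe41* (0.00771) still passed when BXD85 was left out (0.0365 and 0.0458), as did *Dbp* (0.00220 and 0.0481), whereas *Gm129* (0.0123) and *Tef* (0.0188) did not (0.104 and 0.222). Without BXD70 these 5 genes were at 0.00472, 0.0185, 0.00534, 0.0327 and 0.0494 in the same order. *Arntl* did not pass with all lines (0.0745). *Per1*, which glucocorticoids also induce, passed with and without BXD70 and BXD85 (0.0123, 0.0327 and 0.0141). *Clock* and *Rora* were lowest in BXD70, with changes of -1.53 and -3.23. Both encode long transcripts, of 8645 and 10878 bases. *Clock* still passed without BXD70 (0.0241) and *Rora* did not (0.22). The list mean was 0.95 in BXD85 and -0.22 to 0.28 elsewhere. The number of mice behind BXD85 was small, and each of its samples may come from a single mouse. Neither the part of this number nor that of the hour of collection in these levels was tested.

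Genes of protein folding rose in the mean over lines, by amounts that varied. Of 17 tested heat shock genes all 17 rose in the mean, against 27.5% of all genes. Between lines 3 differed (17.6%, against 8.94% of all genes), and 1 without BXD70 (5.88%, against 1.53%), with list means from 0.18 in BXD50 to 0.77 in BXD43. *Hspa1b*, an inducible HSP70 with a near-identical copy, changed from 0.09 in BXD50 to 2.86 in BXD43 (limma adjusted p = 0.0269, and 0.0667 without BXD70), and *Hspa4l*, an HSP110 relative, from 0.08 in BXD50 to 1.33 in BXD65 (0.0127 and 0.0406). *Hspb1* was higher after SD in all lines and *Cryab* in 25, and neither differed between lines (0.0933 and 0.512). All 16 genes of endoplasmic reticulum folding and degradation rose in the mean, and 3 (18.8%) differed between lines with and without BXD70. *Derl3*, a degradation factor, ranged from -0.71 in BXD100 (4.44 to 3.73) to 3.72 in BXD48 (1.61 to 5.33) (0.0183 and 0.0491), with 3 lines below 0, and *Creld2* and *Sdf2l1* rose in all 33 lines without passing (0.105 and 0.077). The list mean was lowest in BXD101 (0.01) and BXD50 (0.04) and highest in BXD67 (0.61). Over 6449 genes whose mean changed with and without BXD70, the slope of a line's changes on the mean of the other lines was also lowest in BXD50, at 0.513, and highest in BXD95 (1.30) and BXD66 (1.29). In the Ctr pool of BXD50, which lay above the fence, the heat shock and endoplasmic reticulum lists had their highest Ctr sums. These were 2609 and 4337 CPM, against medians of 2093 and 3750 CPM. The part of this Ctr pool in the small changes of BXD50 was not tested.

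Among Atf4 targets 4 of 14 differed between lines (28.6%, against 8.94% of all genes) and 1 without BXD70 (7.14%, against 1.53%). *Asns* (asparagine synthetase) went from -3.31 in BXD71 to 2.03 in BXD73 (limma adjusted p = 0.0203, and 0.052 without BXD70), and *Gdf15* and *Psat1* did not pass (0.14 and 0.328). Of 23 acute phase genes 7 (30.4%) differed, and 5 (21.7%) without BXD70, against the same shares of all genes. *Lcn2* (lipocalin 2) changed by 4.35 in BXD83 (2.51 to 6.86) and by -1.34 in BXD43 (5.70 to 4.36) (0.0131 and 0.0367), and *Socs3* did not pass (0.0914). Of 27 interferon and MHC genes 7 (25.9%) differed between lines and 0 without BXD70, although their median standard deviation was 0.326 in both cases. The list mean was -0.73 in BXD95, next to -0.26 in BXD100. *Oas1a* and *Usp18*, both interferon-induced, changed by -2.45 and -1.65 in BXD95 (0.101 and 0.0459, and without BXD70 0.241 and 0.121), and *Ifi27l2a* and *Cxcl10* did not pass (0.285 and 0.109). Of 20 genes of gluconeogenesis and amino acid catabolism 2 differed (10%, close to the 8.94% of all genes), and 0 without BXD70. *Ppargc1a*, a coactivator of the fasting response, was at -1.21 in BXD48 and -1.19 in BXD70 (0.0365 and 0.109), *Irs2*, an insulin receptor substrate, at -2.52 in BXD70 (0.0554, and 0.287 without BXD70), and *G6pc*, glucose-6-phosphatase, at -0.80 in BXD101 to 0.70 in BXD87 (0.0501).

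In most genes the lines were spread more widely after SD than in Ctr, and part of this widening rested on BXD70. The standard deviation over the 33 lines was larger after SD in 77.1% of the genes, with a median log2 ratio of 0.25 (SD over Ctr), and in 65.3% with a median of 0.10 without BXD70. The median standard deviation was 0.170 in Ctr and 0.209 after SD, and 0.171 and 0.183 without BXD70. Repeated parental pools spread by a median of 0.0916 in Ctr and 0.0988 after SD, and their difference was wider after SD in 54.1% of the genes. Whether the lines widened more than repeated pools was not tested. Gene by gene, with a paired Brown-Forsythe test in limma, 19 genes (0.157%) were wider after SD and 0 (0%) were narrower. At an unadjusted p under 0.05, 1237 were wider and 118 narrower, and a Pitman-Morgan test called 1608 wider and 52 narrower. Without BXD70, 24 genes (0.198%) were wider and 1 gene (0.00825%) was narrower. All 19 were among the 24.

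Among the 19 genes called wider, the largest ratios belonged to *Syvn1*, *Cdip1*, *Mpzl2*, *Tmed3* and *Fam134b*. *Syvn1* (chr19:6046576-6053712, mm9), the ubiquitin ligase of degradation at the endoplasmic reticulum, lay within 7.28 to 7.74 log2 CPM in Ctr and 7.30 to 8.49 after SD, a ratio of standard deviations of 2.91 (limma adjusted p = 0.00661, and 0.00719 without BXD70). It was the only one of the 5 whose change also differed between lines (0.00815, and 0.0241 without BXD70). *Cdip1*, a p53-dependent apoptosis gene, lay within 6.93 to 7.29 in Ctr and 7.17 to 7.98 after SD (ratio 2.72), and rose in all 33 lines. *Mpzl2*, an adhesion protein, widened from 6.54 to 6.82 in Ctr to 6.48 to 7.30 after SD (ratio 2.69). *Tmed3*, a cargo receptor of the secretory pathway, had a ratio of 2.36 and *Fam134b*, a receptor for autophagy of the endoplasmic reticulum, one of 2.19 (adjusted p = 0.0448 and 0.0269, and 0.0477 and 0.0223 without BXD70). *Tbc1d23*, chosen after its values were seen, had the lowest adjusted p (0.00285), with a ratio of 1.57. *Ddit4*, an inhibitor of mTOR signalling, and *Mmab*, an enzyme of cobalamin metabolism, were also among the 19, with ratios of 2.03 and 1.69. The changes of *Tbc1d23* and *Ddit4* also differed between the 33 lines (limma F test, adjusted p = 0.025 and 0.0491). Without BXD70 they did not (0.0848 and 0.106). The gene that was narrower without BXD70 was *Nnmt*, a nicotinamide methyltransferase, at 1.40 to 6.89 in Ctr and 3.50 to 7.11 after SD (ratio 0.638, and 0.625 without BXD70, limma adjusted p = 0.0806 and 0.0383).

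**Figure D5:**
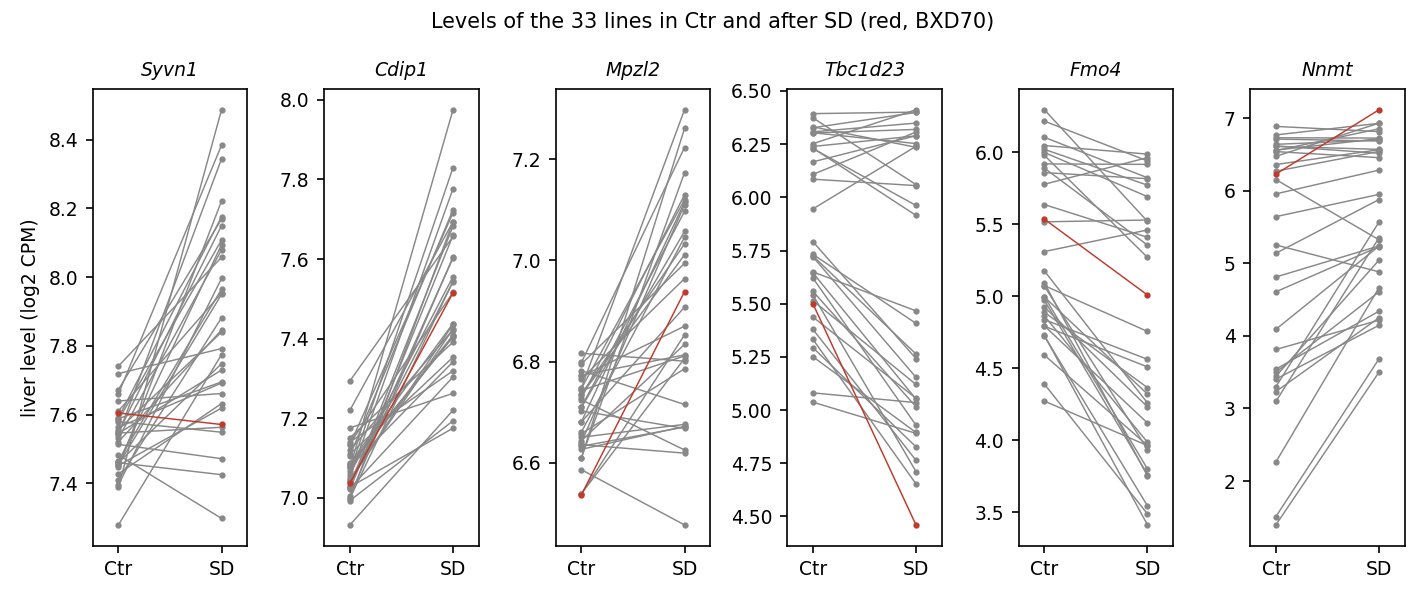
Liver level (log2 CPM, vertical axes) of 6 genes in Ctr and after SD, with a line joining the pools of each of the 33 lines and BXD70 in red. *Syvn1*, *Cdip1*, *Mpzl2*, *Tbc1d23* and *Fmo4* fan out after SD, and *Nnmt* draws together.

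For reference, 3330 genes (27.5%) rose and 3303 (27.3%) fell in the mean over the 33 lines (paired limma test). A line shared the direction of the mean in 69.0% (BXD70) to 90.8% (BXD66) of the 6449 genes whose mean changed with and without BXD70.

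Whether lines with a strong change in liver also had one in cortex was examined for 10 of the named genes. Cortex and liver were taken from the same set of mice. A trait of a line and a state of the mice in its pools therefore cannot be told apart here. *Mt2* passed, with Pearson's r = 0.675 over 33 lines (permutation p = 4e-05, adjusted 4e-04) and Spearman's rho = 0.568 (permutation p = 7.2e-04, adjusted 0.0072). Without BXD56 and BXD89, the lines farthest from the median, r was 0.501, and without BXD70 alone it was 0.675. In cortex *Mt2* changed by -0.26 to 1.26 (median 0.61). The other 9 genes, *Cish* (r = -0.142), *Pnpla3* (r = 0.265) and *Acot3* (r = 0.326) among them, had adjusted permutation p-values of at least 0.325. Across lines, the deviation of a line was also set against the smaller of its liver libraries. Pearson's r was -0.55 (permutation p = 0.00162) and Spearman's rho -0.275 (permutation p = 0.12), and r was -0.214 without BXD70 and BXD79, the lines with the most extreme libraries, and -0.292 without BXD70 alone, so this relation rested on them.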

How the data were processed

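Liver RNA-seq of 33 BXD/*RwwJ* lines was analysed in 66 samples, 1 pool per line for Ctr and for SD, with 8 parental samples for the error between pools. The authors deposited log2 CPM values. They had aligned stranded mRNA libraries to mm9 with STAR, counted with htseq-count and filtered for low counts. The authors scaled by edgeR's TMM method and added a prior count, here found to average 0.993. Reversing this, 100% of the values came within 0.02 of a whole number of reads.

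Changes (SD minus Ctr of a line) of 12119 genes with a mean of at least 1 log2 CPM were tested with limma 3.58.1 in R 4.3.3. Differences between lines were tested with a moderated F test with a variance trend, in which the repeated parental pairs gave 2 residual degrees of freedom and the fit across genes a prior of 7.59. Spread was tested with a paired Brown-Forsythe test and the mean change with a paired test. Pools were paired by line, which the labels give. P-values were adjusted by Benjamini-Hochberg over the tested genes, with a threshold of 0.05. Relations used 100000 permutations (scipy 1.17.1). Transcript lengths were matched for 11455 genes (94.5%). The F test, the spread test and the test of the mean change were run on simulated data, and the alternatives were not. In the simulation all genes had the same noise between pools and no line stood apart.

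Named are the 20 genes with the largest standard deviation among those passing the F test, the 5 largest and smallest ratios of spread among those passing, the 5 genes farthest above and below the other lines in a line that stands apart, the 5 most variable genes with changes in both directions, the 5 widest gaps of a single line, and up to 4 of the most variable genes of each list. Members, lists and rules were chosen with earlier results of these data known. Alternatives covered the variance trend, scaling, filters, pairing, the error strains, leaving out lines and, added after seeing the data, removal of the length trend. Values of 2 members of the lists are not reported here.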

Additional observations from a re-analysis of the deposited data

How the results depend on the processing

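The number of genes whose change differed between lines, 1083, depended most on BXD70 and on the estimate of error, which rests on 4 parental pairs. It was 185 without BXD70 and 416 with the length trend removed (of 11455 genes, 363 of them among the 1083). It was 465 without the D2 pair, 1617 without the B6 pair and 534 with the reciprocal F1 hybrids added as a repeated strain. The number was 0 without a variance trend (1744 genes at an unadjusted p under 0.05, 3413 with the trend). Pairing is by line. Without the replicate block it was 631 with line-by-condition means and 161 with voom, and the block changed no count of mean changes by more than 1.5 times. Leaving out 1 line gave 185 (without BXD70) to 1159 genes, and of the 185 genes at most 4 were lost (without BXD95). Some named genes lost their call with any 1 of several lines left out. These were 9 lines for *Plin4*, 6 for *Cyp7a1*, 5 for each of *Cyp2a4*, *Cfd* and *Usp18*, 3 for *Zbtb7c* and 2 for *Ppargc1a*. Wider spread was called in 19 genes, in 12 over all listed genes, 1608 by a Pitman-Morgan test and 136 by its rank form, and in 11 (without BXD90) to 29 (without BXD50) genes when 1 line was left out (12 each without BXD64 or BXD65). Narrower spread was called in 0 genes, in 1 with libraries centred on the median, after quantile normalization, without BXD70, or without BXD79, BXD85 and BXD101, in 52 by the Pitman-Morgan test and 6 by its rank form, and in 0 to 2 when 1 line was left out. Mean falls numbered 3303 and 1941 among genes with a mean of at least 5 log2 CPM, where fewer genes were tested, and rises and falls were 3253 to 3554 and 3200 to 3456 when 1 line was left out. The deviation of BXD70, 0.691, was 0.411 as a median absolute deviation, 0.606 for genes of at least 5 log2 CPM and 0.521 with the length trend removed. The number of lines above the fence was 1, and 2 for genes of at least 3 or 5 log2 CPM, where BXD85 joined. No result turned its direction. At the level of the named genes, 469 combinations of a gene and a setting kept the call of a difference between lines and 222 lost it. Where no cause is named here, the cause was not tested.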

Other observations

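The 20 most variable genes were also read in liver samples outside the 33 lines. Of 80 values in 4 BXD/*TyJ* lines (BXD05, BXD29, BXD29t and BXD32), 77 lay within the range of the 33 lines. The genes were chosen for wide changes over the 33 lines, so most values would lie within these ranges in any case. The 3 outside belonged to BXD05, for *Ces2b*, *Gadd45g* and *Myc*. The reciprocal F1 hybrids changed in *Mt2* by 3.45 and 3.37, above the highest of the 33 lines (3.08), while the B6 pools lay at 1.48 and 2.03 and the D2 pools at 1.34 and 1.49. *Tmc5* changed by 4.49 and 3.05 in the B6 pools, above the highest line (2.44), and by -0.26 and 0.00 in the D2 pools. The root mean square deviation of the change from the median line was 0.257 to 0.359 in the 4 BXD/*TyJ* lines, within the range of the 33 lines without BXD70.

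In the *TyJ* line BXD29t, *Gm129* was at 3.18 log2 CPM in Ctr and 2.47 after SD, below the 3.73 to 6.02 of the 33 lines after SD, and *Arntl* was at 5.59 and 6.35, above 2.78 to 5.54 after SD. Its *Per3* (5.30 and 5.46) lay within the range of the 33 lines in both conditions. These values are given without a test.

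*Malat1* and *Neat1*, long RNAs that stay in the nucleus, were chosen after their values were seen. Both differed between lines (limma adjusted p = 0.0145 and 0.00514) and still did without BXD70 (0.0449 and 0.0166). *Neat1* fell by 0.76 ± 0.11 on the log2 scale (SE, n = 33, limma adjusted p = 1.11e-07), with changes from -1.97 to 0.89, whereas *Malat1* ranged from -0.51 to 0.77 with a mean of 0.01 ± 0.05 (SE, n = 33, limma adjusted p = 0.891).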
